A study of Oncorhynchus mykiss with 42 samples.

Results

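In cultured rainbow trout testis, 218 of 8175 arrayed cDNA clones differed between tissue cultured with LH and control tissue at both developmental stages. With FSH, averaged over the stages, these clones hardly differed from control. Of these, 109 were raised and 109 were lowered with LH, and both directions are described apart. A clone was taken as raised where the mean log2 value with LH exceeded that of the controls by at least 0.25 at each stage, and the difference between FSH and control, averaged over the stages, lay from -0.25 to 0.15. The rule for a lowered clone was the mirror image, with LH at least 0.25 below the controls and the mean FSH difference from -0.15 to 0.25. The clones were thus chosen by the values of LH and FSH against control, and all values of LH or FSH against control, and of LH against FSH, are a description without a test. The LH threshold upward was passed by 14.0% of all clones in stage I-II, by 8.76% in stage III and by 3.11% (254 clones) at both, and the downward one by 13.4%, 8.16% and 2.96% (242 clones), before the FSH bounds were applied. The files do not pair clones with genes, and 0 of the 218 clone IDs occurred in the RefSeq gene table of assembly USDA_OmykA_1.1. The clones are therefore given by their IDs, and neither gene lists nor the testis label could be checked against marker genes.

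FSH and LH are pituitary glycoprotein hormones that act on the testis through their own receptors, which raise cyclic AMP in the receiving cell. In fish the LH receptor lies mainly on Leydig cells, which make the androgens, and the FSH receptor on Sertoli cells, which nurse the germ cells, and in several species on Leydig cells as well. Both hormones can stimulate steroid production, and FSH also changes the growth factors that Sertoli cells release. In trout, testes of stages I and II hold spermatogonia as their germ cells, and cells in meiosis appear in stage III.

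The study measured 42 arrays of whole testis from an all-male rainbow trout population, at stage I-II and at stage III. At each stage, 3 arrays held tissue taken before culture (T0, 0 h). A further 6 arrays held fragments cultured for 96 h without hormone (Ctrl), 6 with FSH and 6 with LH, each hormone as a purified salmonid preparation at 500 ng/mL. Cultured fragments of all 3 groups lay on membrane inserts at 12 °C in 300 µL of modified L15 medium with 2% Ultroser SF, changed after 48 h. The labels speak of 6 replicate incubations but do not tie arrays to fish or wells. The p-values below therefore measure only the spread between these samples, which may be partly technical, and a stage and its fish cannot be told apart. In whole tissue, fewer cells of a type and less RNA per cell cannot be told apart. Both hormones were set against the same Ctrl arrays.

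Differences of the members with LH were small. Among the 109 raised clones the median difference between LH and Ctrl was 0.37 on the log2 scale in stage I-II (a 1.29-fold ratio), with a range of 0.25 to 0.75. In stage III the median was 0.31 (1.24-fold), with a range of 0.25 to 1.33. Among the 109 lowered clones the median was -0.33 in stage I-II, with a lowest value of -0.80, and -0.30 in stage III, with a lowest value of -0.57. Over all 8175 clones the medians were 0.02 and -0.01. The difference reached 0.5 in size at one stage or the other for 20 raised and 16 lowered clones, and at both stages for 0 raised and 2 lowered ones. It was larger in stage I-II than in stage III for 69 raised and 68 lowered clones. The corresponding share over all clones was not taken. All clones also passed the threshold more often in stage I-II (14.0% upward, 13.4% downward) than in stage III (8.76% and 8.16%). The counts are thus not read as a trait of the members.

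**Figure D1:**
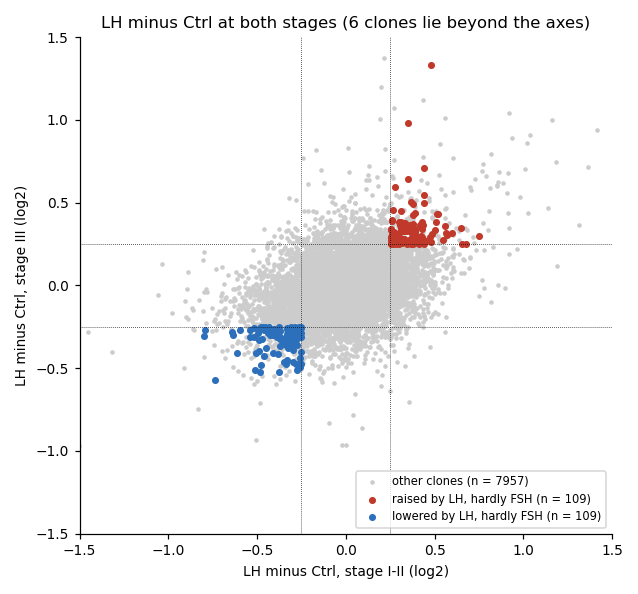
Each point is a clone, with its difference between LH and Ctrl in stage I-II (horizontal axis, log2) and in stage III (vertical axis, log2); dotted lines mark the threshold of 0.25 in either direction. The 109 raised clones (red) and 109 lowered clones (blue) crowd against the thresholds, and the other clones (grey) in the same corners had a mean FSH difference outside the bounds.

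Most members lay close to the threshold. The smaller of the stage differences was under 0.3 in size for 59 raised and 69 lowered clones. Just inside the threshold, a raised clone had 0.25 at both stages, and the nearest clone outside it also rounded to 0.25 at both. For lowered clones the nearest member had -0.25 (I-II) and -0.31 (III), and the nearest clone outside had -0.69 and -0.25. At the FSH bound, the nearest raised member had a mean FSH difference of 0.147 and the nearest clone outside 0.153. The corresponding lowered pair had -0.149 and -0.152.

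The FSH rule allowed differences of either sign, and the members were not evenly spread between its bounds. The FSH difference of stage I-II had the sign of the LH difference in 77 of 109 raised clones, with a median of 0.08, and in 92 of 109 lowered clones, with a median of -0.12. The signs matched in 62 and 67 clones in stage III, with medians of 0.02 and -0.03. Both differences subtract the same Ctrl arrays, so choosing clones by LH against Ctrl favours a like sign with FSH. The share of like signs over all clones was not taken, and these counts do not show a response to FSH. The mean over stages lay from -0.12 to 0.15 among raised clones and from -0.15 to 0.15 among lowered ones. At a single stage the FSH differences were wider. Among raised clones they ran from -0.22 to 0.36 (I-II) and from -0.32 to 0.28 (III). Among lowered clones they ran from -0.40 to 0.20 and from -0.35 to 0.30. Only 64 raised and 58 lowered clones met the FSH bounds at each stage. The difference between LH and FSH, which the rule largely sets, had medians of 0.30 at both stages among raised clones, and of -0.26 (I-II) and -0.30 (III) among lowered ones.

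How far single arrays separated can be given only as a description, since the rule favours separation. The 6 LH arrays lay entirely above the 6 Ctrl arrays for 6 raised clones in stage I-II, beside 1.69% of all clones, and for 1 in stage III, beside 0.44%. They lay entirely below for 16 lowered clones in stage I-II (1.88%) and for 2 in stage III (0.281%). For 0 clones of either direction were the groups apart at both stages.

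Levels of the members lay close to those of the whole array. The mean log2 level over the 42 arrays had a median of 7.33 among raised clones, 7.11 among lowered ones and 7.15 over all clones. The spread of replicates, as the SD within a cultured group, had a median of 0.25 for raised, 0.26 for lowered and 0.23 for all clones (log2).

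To show every array, the deviation from the Ctrl mean of the stage was taken for each clone and its median over the 109 raised or lowered clones was formed. For the raised clones the 6 LH arrays of stage I-II lay between 0.25 and 0.47, with a median of 0.34. The Ctrl arrays lay between -0.15 and 0.18 and the T0 arrays between 0.00 and 0.09. The FSH arrays of stage I-II fell into high and low arrays: replicates 26, 27 and 30 lay at 0.24, 0.26 and 0.27, and replicates 25, 28 and 29 at -0.01, -0.17 and -0.11. The mean near 0 of the FSH group in stage I-II thus came from arrays that lay on either side of the Ctrl mean, and its high arrays reached the lowest LH arrays.

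For the lowered clones, LH arrays of stage I-II lay between -0.52 and -0.22 and Ctrl arrays between -0.11 and 0.08. FSH replicates 26, 27 and 30 lay at -0.40, -0.31 and -0.22, and replicates 25, 28 and 29 at 0.10, 0.14 and 0.07. The arrays that were high for the raised clones were low for the lowered ones.

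In stage III the groups were less separate. The LH arrays lay between 0.13 and 0.48 for raised clones and between -0.44 and -0.15 for lowered ones. Ctrl arrays ran from -0.22 (replicate 55) to 0.23 (replicate 58) for the raised and from -0.22 (replicate 60) to 0.25 (replicate 55) for the lowered clones, so LH and Ctrl arrays overlapped in both directions. FSH arrays lay between -0.12 and 0.18 for raised and between -0.23 and 0.23 for lowered clones. Raised and lowered medians lay on opposite sides of their group means on 30 of the 36 cultured arrays.

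**Figure D2:**
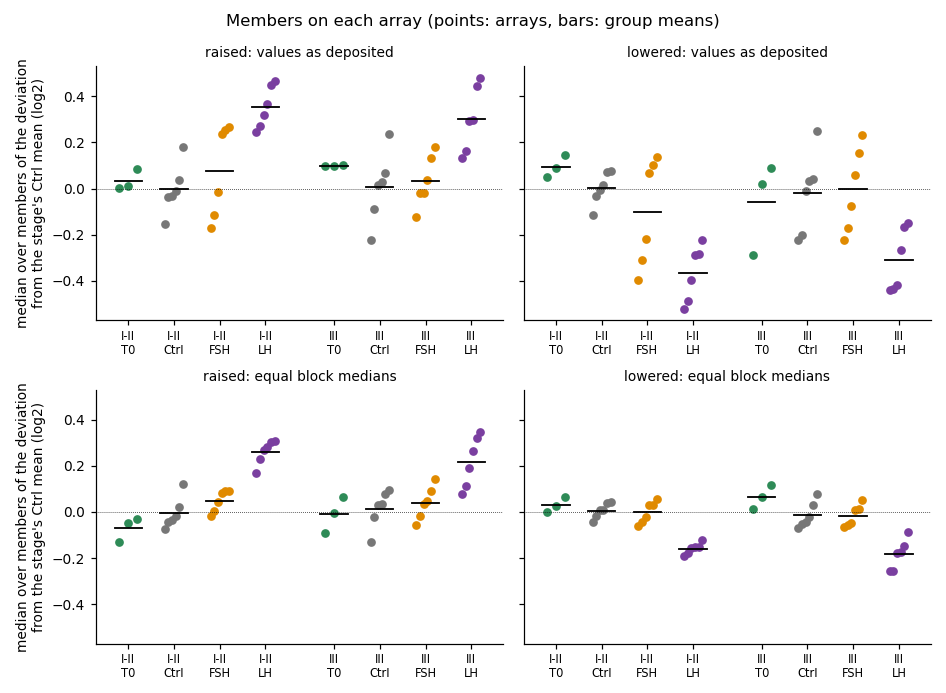
Points are arrays, placed by the median over the 109 raised (left) or 109 lowered (right) clones of the deviation from the stage's Ctrl mean (vertical axis, log2); bars are group means. With the values as deposited (upper panels) the FSH arrays of stage I-II separate into a high and a low set, and with equal block medians (lower panels) they lie between -0.02 and 0.09 for raised and between -0.06 and 0.06 for lowered clones.

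The members were concentrated in parts of the membrane. Each membrane held 64 blocks in 16 block columns, here lettered A to P, and 4 block rows, with 144 positions to a block. Clones were placed by matching their deposited profile over the arrays to the scanner values, held to the print order. Of the 109 lowered clones, 45 (41.3%) lay in the last block column P, which holds 6.43% of all clones, and 88 (80.7%) in block columns M to P, which hold 25.5%. Column 12 of the blocks held 24 lowered clones (22.0%) and 9.11% of all clones. Of the 109 raised clones, 96 (88.1%) lay in block columns A to G, which hold 43.0%, and 0 in M to P.

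Clones that were not members differed in the last block columns too, and less regularly in the first. In block column P their median difference between LH and Ctrl in stage I-II was -0.32 and in stage III -0.10, and in block column O these were -0.16 and -0.07. In stage III the medians of block columns A to G, which hold most raised clones, were 0.14, 0.12, 0.12, 0.10, 0.09, 0.04 and 0.04, and those of H to L lay between -0.075 and -0.03. In stage I-II they were -0.06 in A, 0.02 in B and 0.00 in C, with 4, 11 and 12 raised clones, and between 0.08 and 0.12 in D to G. Block columns H, I and J had 0.11, 0.12 and 0.11 with 3, 4 and 2 raised clones. With FSH the median in P was -0.13 for stage I-II and 0.02 for stage III. The arrays showed this too. Relative to each clone's own mean over the 42 arrays, the median of other clones in P was -0.26 and -0.21 on FSH replicates 26 and 27 of stage I-II, and 0.20, 0.27 and 0.12 on replicates 25, 28 and 29. On the LH arrays of stage I-II it ran from -0.49 (replicate 34) to 0.01 (replicate 33), and on the Ctrl arrays from 0.05 to 0.25. FSH replicates 26 and 27, which were low for the lowered members, were thus low for the other clones of block column P as well, while on replicate 30 those clones lay at 0.00.

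**Figure D3:**
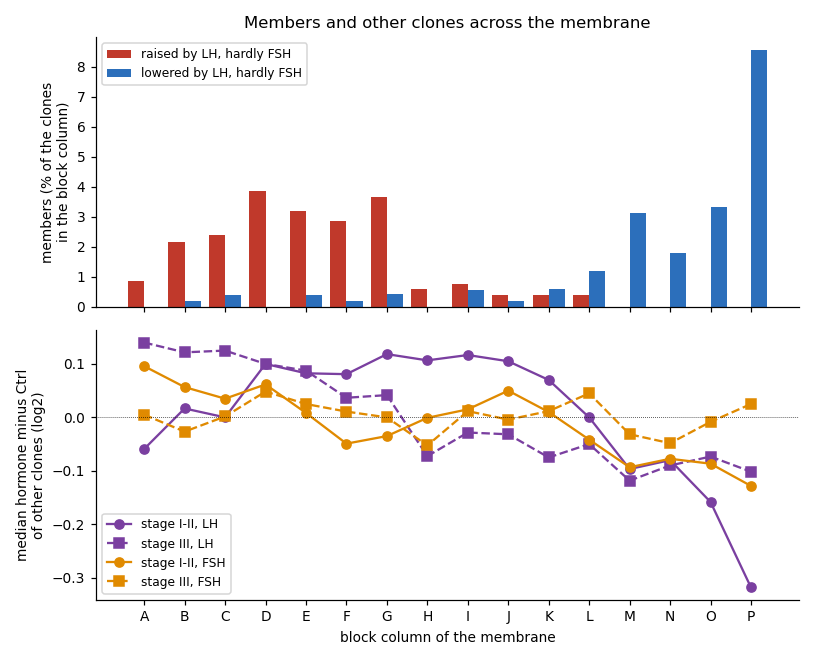
Upper panel: members as a percentage of the clones in each of the 16 block columns of the membrane (horizontal axis), raised in red and lowered in blue. Lower panel: the median difference between hormone and Ctrl (vertical axis, log2) of the clones that are not members, for LH (purple) and FSH (orange) in stage I-II (solid) and stage III (dashed); lowered clones make up 8.56% of block column P, where other clones had a median LH difference of -0.32 in stage I-II.

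When the median of each block was set equal on each array, an alternative chosen after seeing the data, the rule gave 41 raised and 32 lowered clones, of which 20 and 14 were among the members. The raised members' median LH difference became 0.25 (I-II) and 0.23 (III), and that of the lowered members -0.17 and -0.19. Of the lowered clones in block columns M to P, 4 of 88 met the rule, and elsewhere 10 did. Of the raised clones in A to G, 14 of 96 met it. Every raised member kept a positive difference at both stages (smallest 0.06 for stage I-II and 0.02 for stage III). Of the lowered members, 18 turned positive for stage I-II and 0 for stage III. These are the same arrays that chose the members at a threshold of 0.25, so a kept sign is no independent support. What part of the members' LH differences came from their place on the membrane was not tested beyond these values.

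A further measure differed between the groups of stage I-II. Of the repeated positions A11 and A12 of each block, taken as control spots because their number matches that of the table's control entries, the median scanner intensity per array was 103.5 to 148 on LH arrays, 178 to 236.5 on FSH arrays and 231.5 to 420 on Ctrl arrays. The LH arrays lay below all FSH and Ctrl arrays, and the ranges of FSH and Ctrl overlapped. In stage III they were 83 to 182, 94.5 to 156 and 93.5 to 166 and overlapped. On T0 arrays the control spots had 550.5 to 955.5 in stage I-II and 209.5 to 1125.5 in stage III. The median intensity of clone spots ran from 85 to 171 over all arrays. Among raised members 40.2% of readings carried the scanner quality value 1, among lowered members 28.3% and among all clones 31.0%. The meaning of that value was not found in the labels or headers.

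Among the raised clones, 1rt101h14_d_d07 had the largest LH difference averaged over the stages, with 0.48 for stage I-II and 1.33 for stage III. Its deposited log2 values in stage III were 5.56, 6.72, 12.10, 6.08, 5.92 and 6.50 on LH replicates 67 to 72 and 5.99, 5.76, 6.14, 5.15, 5.78 and 6.06 on Ctrl replicates 55 to 60. Replicate 69 stood 5.38 above the next LH array, and without it the difference was 0.34. In stage I-II the LH arrays ran from 5.56 to 6.67 and the Ctrl arrays from 5.28 to 6.02, with 4 of 6 LH arrays above every Ctrl array. On LH replicate 69, 4 of the 6 clones in adjacent positions were also above all other LH arrays, 3 of them by more than 2 and at most by 6.04.

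For the raised clone next in size, tcay0030.j.13, the direction in stage III rested on 1 array. In stage III its LH values were 5.65, 6.15, 6.03, 6.46, 5.96 and 13.65 on replicates 67 to 72, and its Ctrl values were 5.96, 6.82, 6.57, 6.57, 6.02 and 6.07. The difference of 0.98 became -0.29 without LH replicate 72, and by group medians it was -0.23, so its direction in stage III turned. On replicate 72, 8 of 8 adjacent clones were above all other LH arrays, 5 of them by more than 2, and 14 clones of the table stood that far above on this array, against 1 to 6 on the other LH arrays of stage III. In stage I-II the difference was 0.35: LH arrays ran from 6.24 to 6.70, Ctrl arrays from 6.01 to 6.28 and FSH arrays from 5.88 to 6.33, and T0 tissue had 6.67, 6.50 and 6.61.

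The lowered clone 1rt106l05_b_f03 had an LH difference of -0.74 for stage I-II and of -0.57 for stage III. In stage I-II its LH values were 5.77, 5.66, 6.13, 5.29, 5.89 and 5.87, and its Ctrl values were 6.62, 6.49, 6.67, 6.33, 6.58 and 6.33. All 6 LH arrays lay below every Ctrl array. In stage III the LH values were 5.32, 5.51, 6.09, 5.85, 5.98 and 5.52 and the Ctrl values 6.00, 6.10, 6.50, 6.29, 6.40 and 6.40, with 5 of 6 LH arrays below every Ctrl array. Its FSH arrays ran from 6.17 to 6.66 in stage I-II. In stage III its FSH replicate 65 stood at 5.18 with the others from 6.05 to 6.61. The clone lies in block column M, and with equal block medians the differences were -0.36 and -0.34. In the scanner signal they were -0.22 and -0.34.

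The other leading lowered clone, 1rt24f05_b_c03, had -0.80 for stage I-II and -0.31 for stage III. In stage I-II its LH values were 6.57, 5.96, 6.72, 5.82, 7.43 and 6.97 against Ctrl values of 7.30, 7.66, 7.63, 7.18, 7.65 and 6.85, with 4 of 6 below every Ctrl array. In stage III the Ctrl arrays alone ran from 6.24 to 8.35, which covered all LH arrays except replicate 67 at 6.13, and without that array the difference was -0.15. With equal block medians the difference for stage I-II was -0.85, the lowest among the lowered clones. For stage III it was also larger in size than as deposited. In the scanner signal 1rt24f05_b_c03 had differences of -0.26 for stage I-II and -0.13 for stage III, and 1rt101h14_d_d07 and tcay0030.j.13 had 0.19 and 0.21 for stage I-II.

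**Figure D4:**
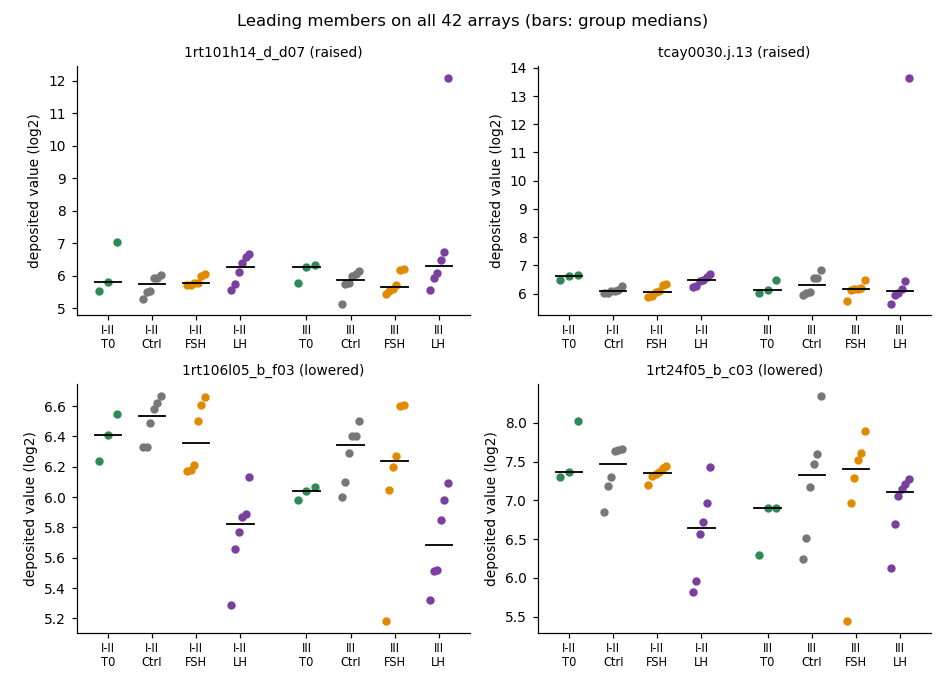
Deposited log2 values (vertical axis) of the 2 leading raised and 2 leading lowered clones on all 42 arrays; points are arrays and bars group medians, and the vertical scales differ between panels. In stage III, 1rt101h14_d_d07 reached 12.10 and tcay0030.j.13 reached 13.65 on 1 LH array each, while 1rt106l05_b_f03 was lower on the LH arrays at both stages.

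The clones whose deposited values were most like those of the leading members over the 42 arrays were not members. For 1rt101h14_d_d07 they were 1rt138o23_a_h12 (Pearson r of 0.957) and 1rt138p12_d_h06 (0.875), both of them adjacent clones with high values of 12.21 and 12.47 on LH replicate 69. For 1rt106l05_b_f03 they were 1rt63l21_b_f11 (0.755) and tcbk0051.n.05 (0.735), with LH differences of -0.39 and -0.52 for stage I-II and of -0.23 and -0.19 for stage III. These correlations share arrays and, in the former pair, a place on the membrane.

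Few members kept their place under all of the other settings. With each cultured array left out in turn, 13 raised and 10 lowered clones met the rule in all 36 runs, and the fewest kept in a run were 61 and 57, both without Ctrl replicate 55 of stage III. With group medians 46 and 58 members met the rule, and with quantile-normalised scanner signal 15 and 4. In the scanner signal the LH difference averaged over stages had the members' sign in 107 of 109 raised and 104 of 109 lowered clones, with medians of 0.22 and -0.17. The sign was that of the members at both stages in 96 raised and 92 lowered clones. The scanner signal is of the same spots on the same arrays that chose the members, so these counts are no independent support. A single clone met the rule with group medians, with equal block medians, in the scanner signal and in all 36 runs. This was the raised clone tcay0031.f.19, which was picked out after its values were seen. Other thresholds and FSH bounds were not part of that count. Its LH values in stage I-II were 7.04, 7.12, 7.43, 7.38, 7.30 and 7.38, and its Ctrl values 7.05, 6.72, 7.11, 7.15, 6.24 and 7.04, a difference of 0.39 with 4 of 6 LH arrays above every Ctrl array. In stage III its LH values were 6.03, 8.03, 6.72, 7.60, 6.93 and 8.10 and its Ctrl values 6.49, 6.88, 6.83, 6.76, 6.74 and 7.07, a difference of 0.44 in which the LH arrays lay on both sides of the Ctrl range.

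The members' behaviour outside the hormone contrasts could be tested. Before culture, stage III was set against stage I-II on the T0 arrays, with limma across all clones and Benjamini-Hochberg adjustment. Of the raised clones, 12 were higher and 9 lower in stage III, beside 11.6% of all clones called higher and 12.0% called lower. Of the lowered clones, 13 were higher and 20 lower. The split depended on the values used: with equal block medians 23 lowered clones were higher and 11 lower, beside 14.8% and 14.5% of all clones. With scanner signal these were 23 and 10, beside 14.8% and 14.0% of all clones. Their median difference moved from -0.22 to 0.02 when block medians were set equal. For raised clones the splits were 14 and 14 with equal block medians and 10 and 19 in the scanner signal.

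Among raised clones, tcan0001.g.11 had T0 values of 7.48, 7.56 and 7.74 in stage I-II and a mean of 9.50 ± 0.50 (SD, n = 3) in stage III, a difference of 1.90 (limma SE 0.35, adjusted p = 5.04e-05). The clone 1rt138b15_b_a08 went the other way, from 9.61 ± 0.25 (SD, n = 3) to 7.60 ± 0.26 (SD, n = 3), a difference of -2.02 (limma SE 0.22, adjusted p = 1.26e-09). For both, the T0 arrays of the stages did not overlap. Among lowered clones, tcba0019.j.11 had 6.62, 6.92 and 8.49 in stage I-II against 9.75, 10.15 and 10.43 in stage III, a difference of 2.77 (limma SE 0.31, adjusted p = 2.21e-09). The lowered clone tcay0024.i.23 had 8.68, 9.08 and 9.17 against 7.68, 7.79 and 7.97, a difference of -1.16 (limma SE 0.19, adjusted p = 5.47e-06).

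Culture itself was tested with the equal mean of the Ctrl, FSH and LH groups against T0. The error of that mean is independent of the contrasts that chose the members only where the cultured groups have equal spread. Over the lowered clones in stage I-II, the SD of the array medians was 0.07 for Ctrl, 0.23 for FSH and 0.12 for LH. Part of each true hormone effect also stays in that mean. The counts of members called for culture are thus not fully independent of the rule. After culture in stage I-II, 26 raised clones were higher and 9 lower, beside 17.3% and 18.6% of all clones. Of the lowered clones, 5 were higher and 31 lower. Equal block medians gave 34 and 12 raised clones, beside 20.2% and 22.1% of all clones, and 8 and 26 lowered clones. The scanner signal gave 25 and 19 raised and 13 and 19 lowered clones, beside 19.7% and 22.7% of all clones. The splits thus depended on the values used. The medians of the culture difference were 0.11 for raised, -0.26 for lowered and -0.04 for all clones, and with equal block medians 0.16, -0.08 and -0.04. Without T0 replicate 2 of stage I-II, 21 lowered clones in all were called, and without T0 replicate 1, 23. The share over all clones was not taken for these runs. Whether lost power or something else lay behind these counts was thus not tested.

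In stage III culture left 23 raised clones higher and 18 lower, beside 18.2% and 20.0% of all clones, and 13 lowered clones were higher and 21 lower. For lowered clones equal block medians gave 14 higher and 38 lower, beside 21.1% and 24.6% of all clones. The corresponding raised counts were 31 and 19.

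The raised clone 1rt91h09_b_d05 rose most with culture in stage I-II. Its T0 values were 7.0, 7.1 and 7.13 and its 18 cultured arrays ran from 8.72 through a median of 9.28 to 9.82, a difference of 2.23 (limma SE 0.15, adjusted p = 9.77e-17). In stage III it rose from 7.08, 7.10 and 7.30 to cultured values between 8.01 and 8.99. All 18 cultured arrays of each stage lay above all T0 arrays. The raised clone tcac0004.k.24 had the largest rise in stage III, from T0 values of 5.21, 5.22 and 6.02 to cultured values between 6.52 and 8.09 (difference 1.64, limma SE 0.22, adjusted p = 5.20e-08).

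Some members fell with culture. The raised clone 1rt138b15_b_a08, which had been high in stage I-II tissue before culture, went from T0 values of 9.32, 9.74 and 9.78 to cultured values between 6.80 and 8.10, a difference of -2.07 (limma SE 0.17, adjusted p = 7.35e-14). The lowered clone tcbk0014.l.23 went in stage I-II from 8.40, 8.76 and 8.86 to values between 6.83 and 7.88, a difference of -1.23 (limma SE 0.17, adjusted p = 1.59e-07). In both, all 18 cultured arrays lay below the T0 arrays. The lowered clone tcba0019.j.11 fell by 1.76 in stage III (limma SE 0.24, adjusted p = 4.65e-08), with cultured arrays between 7.68 and 9.50. In stage I-II its difference was -1.05 and rested on T0 replicate 3 at 8.49: without that array it was -0.48 (limma adjusted p = 0.13). The lowered clone with the largest rise in stage III was tcba0013.j.09, from 6.78, 7.55 and 7.60 to a cultured median of 8.47 (difference 1.10, limma SE 0.20, adjusted p = 2.00e-05), with 16 of 18 cultured arrays above the T0 arrays.

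The change with culture differed between the stages, by the same fit, for 6 raised clones upward and 6 downward and for 8 and 9 lowered clones, beside 6.1% and 6.72% of all clones. With equal block medians the counts were 8 and 10 for raised and 5 and 18 for lowered clones. The share over all clones was not taken for that setting, so these counts cannot be set against it. The median of the lowered clones moved from 0.22 to -0.06, beside -0.004 and -0.006 over all clones. The sign of that median thus depended on the values used.

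**Figure D5:**
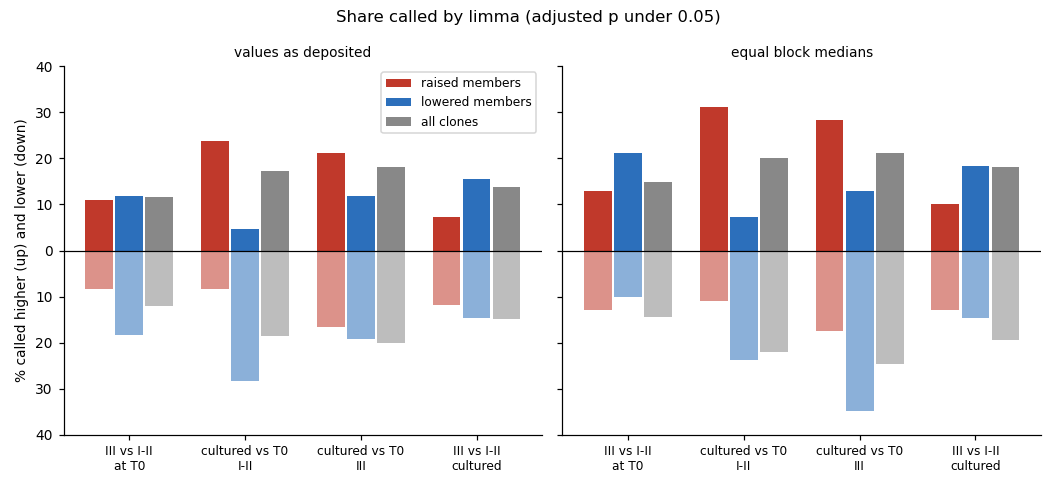
Share of raised members, lowered members and all clones called by limma at an adjusted p under 0.05 (vertical axis, %, higher upward in full colour and lower downward in pale colour). The 4 comparisons are not contrasts of the rule, and are shown with values as deposited (left) and with equal block medians (right). All but the T0 comparison use the cultured arrays that chose the members, and part of each true hormone effect stays in them. In culture against T0 of stage I-II, with values as deposited, 23.9% of raised and 4.59% of lowered members were higher, beside 17.3% of all clones. With the scanner signal (not shown), 25 raised members were higher and 19 lower, and 13 lowered members were higher and 19 lower. The shares over all clones were then 19.7% and 22.7%.

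Over the 18 cultured arrays of each stage, 8 raised clones were higher and 13 lower in stage III than in stage I-II, beside 13.9% and 14.8% of all clones. The lowered clones counted 17 higher and 16 lower, shares near the background. With equal block medians 11 raised clones were higher and 14 lower and 20 lowered clones were higher and 16 lower, beside 18.2% and 19.4% of all clones. The lowered clone tcba0019.j.11 again had the largest difference, from 6.29 ± 0.25 (SD over 18 arrays of 3 groups) to 8.35 ± 0.45 in stage III (difference 2.06, limma SE 0.13, adjusted p = 1.56e-17). The lowered clone tcba0019.k.12 differed in the opposite direction, from 8.25 ± 0.31 to 7.26 ± 0.34 (difference -0.99, limma SE 0.08, adjusted p = 3.43e-13). Among raised clones, tcan0001.g.11 was higher in stage III by 0.75 (limma SE 0.14, adjusted p = 5.28e-05), with cultured arrays from 6.80 to 9.25 against 7.04 to 8.18 in stage I-II, so the arrays overlapped. The raised clone tcbk0006.h.24 was lower in stage III by a difference of -0.80 (limma SE 0.11, adjusted p = 1.35e-07).

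Clone IDs beginning with tcbk made up 38.5% of the lowered and 15.6% of the raised members, beside 23.1% of all clones. The print order, which was inferred, follows the IDs through all blocks row by row. An ID prefix thus goes with rows within the blocks rather than with block columns. Whether these shares go with the prefix or with a place on the membrane was not tested.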

How the data were processed

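Per the labels' protocols, 5 µg of total RNA was copied with an oligo(dT) primer into 33P-labelled cDNA and each sample was hybridised alone. The authors deposited a log2 table of the whole series, whose column medians lay between 7.15 and 7.17. How it was normalized is not stated in the labels or headers. Per the file headers, the authors also deposited 1 scanner export per array with a spot intensity column, an overshining correction score and a quality score. The image intensity was used on the log2 scale after quantile normalization, as an alternative, and the scores as descriptions.

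Group means of the log2 table gave the rule's differences. Tests used limma 3.58.1 in R 4.3.3 (lmFit and eBayes, 8 group means, 42 arrays, 8175 clones, Benjamini-Hochberg adjustment over all clones, called at an adjusted p under 0.05), and the fitting was tested on simulated data. Clones were matched to scanner positions by profile within 3 positions of the print order for 97.5% of clones, with a median difference of 0.18 (root mean square, log2), and equal block medians rest on that match. Positions A07, A11 and A12 of each block, 192 in all, were read as control spots by inference. They were left out of the quantile normalization of the scanner signal and of the matching. The exports hold no local background column, and the number of arrays limits the precision.

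Named clones were, in each direction, the 2 with the largest mean LH difference, and in each tested comparison up to 2 higher and 2 lower among called members. For likeness they were the 2 clones with the highest Pearson correlation to the leading member of each direction. The members and this rule were chosen with earlier results of these data known. Other thresholds, group medians, centring, quantile normalization, scanner signal, fitting choices and leaving out arrays were tried. Equal block medians, alone and with group medians, and leaving out the 3 arrays whose export lists its columns in another order (Ctrl 58, FSH 61 and LH 67 of stage III) were added after seeing the data.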

Additional observations from a re-analysis of the deposited data

Results flagged for a closer look

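On the 6 LH arrays of stage III, the deposited log2 value of 1rt101h14_d_d07 was 12.1 on replicate 69 and that of tcay0030.j.13 was 13.65 on replicate 72, each far from the other 5 arrays by Dixon's test. Chance marks about 1 in 20 groups in this way where the groups are not chosen by their values. Both clones were named for a large LH difference, which 1 extreme LH array can give, so that rate does not apply to them.

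The change with culture differed between the stages, by limma's test of the difference across all clones, for 7 of the clones named for their change with culture (stage III minus stage I-II, log2). Among raised clones the difference was 0.92 for 1rt124b03_b_a02 (limma adjusted p = 0.0154), 1.51 for 1rt138b15_b_a08 (limma adjusted p = 2.07e-05), -0.85 for 1rt91h09_b_d05 (limma adjusted p = 0.00408) and -1.15 for tcan0001.g.11 (limma adjusted p = 0.0367). For the lowered clones it was -1.03 for tcay0007.o.08 (limma adjusted p = 0.00133), 0.89 for tcba0013.j.09 (limma adjusted p = 0.0318) and 0.83 for tcbk0014.l.23 (limma adjusted p = 0.0185). Over all clones the test called 6.1% upward and 6.72% downward. The clones above were named for a large culture change at a single stage in these same values. That choice favours a difference between the stages, so these p-values are no independent support for one.

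Of 849 membrane positions matched to no clone with values, 4 (0.471%) met the raised rule in the scanner signal and 3 (0.353%) the lowered rule. Of the positions matched to the 8175 clones, 30 (0.367%) and 20 (0.245%) did.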

How the results depend on the processing

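The number of raised clones was 235 with an LH threshold of 0.20 and 50 with 0.30, and that of lowered clones 208 and 40. FSH bounds applied at each stage gave 64 raised and 58 lowered clones, and bounds narrower by 0.05 gave 69 lowered ones. Scanner signal gave 30 and 20, equal block medians 41 and 32, and equal block medians with group medians 51 and 43. Leaving out 1 cultured array at a time gave 68 to 160 raised clones, the fewest without Ctrl replicate 55 of stage III, and 76 to 155 lowered ones. Without the 3 arrays of another export order the rule gave 154 raised clones, 81 of them members, and 125 lowered, 58 of them members.

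Ctrl arrays alone share their error with the contrasts that chose the members, so their counts are no independent test. For cultured against T0, Ctrl alone called 20 lowered clones in stage I-II. Equal block medians called 52 in stage III, beside 21.1% of all clones called higher and 24.6% called lower. For stage III against I-II over cultured arrays, raised clones called were 32 with scanner signal and 7 with Ctrl alone, and lowered clones 9 with Ctrl alone. Leaving out 1 array gave 21 to 39 lowered and 30 to 36 raised clones for culture in stage I-II, 24 to 38 and 30 to 45 in stage III, 22 to 31 and 14 to 19 for stage at T0, and 30 to 35 and 20 to 23 for stage in culture. Shares over all clones were not taken for Ctrl alone, for scanner signal in stage over cultured arrays or for the runs without 1 array. Whether these counts changed with those of all clones was thus not tested. The LH difference of tcay0030.j.13 in stage III was -0.23 by group medians and -0.285 to 1.315 over single arrays left out. For tcba0029.k.01 the culture difference in stage I-II was 0.62 without T0 replicate 2 (limma adjusted p = 0.0638). The cause of these differences between settings was not tested. No paired analysis was possible because the array numbers of the groups in the labels are not shared between groups.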
